A study of Mus musculus with 6 samples.

Results

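The 10 genes described here are Il2rg, which encodes the common gamma chain of the interleukin receptors, and 9 partners: the receptor chains Il2rb, Il4ra, Il7r, Il21r, Il13ra1 and Il15ra, the ligand Il15, and the kinases Jak1 and Jak3. They were measured among 35905 genes in cultured mouse breast cancer cells, in 3 libraries of EO771-tdT-LM2 cells, called LM2 here, and 3 libraries of EO771-tdT-Parental cells, called Parental here. The members were chosen by a measured value, the higher level of Il2rg in LM2 than in Parental in these same libraries, and the question put to the data was which of its partners were present in each line. The LM2 minus Parental difference of every member is therefore given as a description, with no p-value.

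Both lines are labelled as wild type in genotype and as breast cancer cells, and both were kept in RPMI medium with 10% fetal bovine serum and grown for 48 h to about 75% confluence. No cytokine or other agent is named for either line. How LM2 was derived, what tdT stands for, and what the tag Ac6 in the Parental titles means are not spelled out in the labels. The labels do not say whether the 3 libraries of a line came from separate cultures, and the errors and p-values below cover only how these libraries vary, which may be technical. RNA was taken from whole cultures, in which fewer cells of a type and less RNA per cell cannot be told apart. The libraries held 33922699 to 38182191 estimated counts in LM2 and 36597892 to 45849019 in Parental. Of the epithelial markers checked against the label, Krt8 averaged 485 TPM, a transcript abundance corrected for length and sequencing depth, in LM2 and 351 TPM in Parental, whereas Krt18 and Cdh1 lay below 0.3 TPM in every library of both lines. Epcam rose to 14.6 TPM in LM2 against 0.197 TPM in Parental (edgeR adjusted p = 4.94e-19), and Krt14 to 8.60 TPM in LM2 against 1.09 TPM in Parental (edgeR adjusted p = 8.03e-14). The part of these markers in the results below was not tested.

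The common gamma chain has no known ligand of its own. It joins a cytokine-specific chain to build the receptors for IL-2, IL-4, IL-7, IL-9, IL-15 and IL-21, and carries the kinase JAK3, while the specific chain carries JAK1. These receptors are best known from lymphocytes, in which loss of the chain causes severe combined immunodeficiency. Cells outside the blood lineages usually bind IL-4 through a different pair, IL-4Rα with IL-13Rα1, which uses no common gamma chain and also binds IL-13.

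The promoter stretches are shown for 3 genes of the IL-4 receptor pairs: Il2rg, its partner Il4ra, and Il13ra1, the other possible partner of Il4ra. The part of these sequences in the levels below was not tested. The sequences are from RefSeq, build GRCm38.p6, which is older than the build GRCm39 of the count tables, and run from 250 bases before to 50 bases after the annotated start. Il2rg lies at chrX:101268206-101268505 on the minus strand, Il4ra at chr7:125552021-125552320 on the plus strand, and Il13ra1 at chrX:36111858-36112157 on the plus strand. Capitals mark matches to CCGGAAG, the core of sites bound by ETS transcription factors.
Il2rg: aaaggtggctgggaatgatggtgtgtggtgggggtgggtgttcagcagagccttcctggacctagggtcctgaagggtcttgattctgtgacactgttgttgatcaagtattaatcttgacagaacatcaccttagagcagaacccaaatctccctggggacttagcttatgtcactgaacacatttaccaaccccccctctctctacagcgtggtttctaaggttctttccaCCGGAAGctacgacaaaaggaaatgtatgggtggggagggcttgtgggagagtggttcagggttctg
Il4ra: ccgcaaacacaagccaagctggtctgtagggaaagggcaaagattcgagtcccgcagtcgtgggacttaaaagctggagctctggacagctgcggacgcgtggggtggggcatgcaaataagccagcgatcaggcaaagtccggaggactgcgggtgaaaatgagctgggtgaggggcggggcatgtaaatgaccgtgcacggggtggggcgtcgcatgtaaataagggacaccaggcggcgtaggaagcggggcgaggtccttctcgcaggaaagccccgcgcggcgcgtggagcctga
Il13ra1: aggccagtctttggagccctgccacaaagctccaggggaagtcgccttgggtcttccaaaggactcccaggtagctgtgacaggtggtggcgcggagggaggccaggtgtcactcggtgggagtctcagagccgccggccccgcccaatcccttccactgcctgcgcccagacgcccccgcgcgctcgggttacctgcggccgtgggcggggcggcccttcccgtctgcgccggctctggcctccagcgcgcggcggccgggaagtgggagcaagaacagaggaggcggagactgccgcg
On both strands, 3 motifs were searched for: CCGGAAG, the STAT site TTCNNNGAA and the interferon response element, which is GAAA, any pair of bases and GAAA again. The Il2rg stretch held 1 CCGGAAG, at positions -17 to -11 from the start, on the strand of the gene. The stretches of Il4ra and Il13ra1 held none of the 3 motifs. Of all 32851 promoter stretches in the RefSeq set, 8.86% held CCGGAAG, 8.30% TTCNNNGAA and 3.44% the interferon element. Promoters were found for 8 of the 10 members. Among the others, Il15ra held the ETS core from -104 to -98 in the first of its listed stretches, and Il7r held the STAT site from -142 to -134.

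In LM2 the common gamma chain gene was abundant, and of the receptor chains Il4ra and Il15ra were above 1 TPM beside it. The IL-15 receptor also needs the chain encoded by Il2rb, which was below 1 TPM. A gene was taken as present in a line when it reached at least 1 TPM in each of the 3 libraries. By this rule 5 of the 10 members were present in LM2 (Il2rg, Il4ra, Il15ra, Jak1 and Jak3) and 4 in Parental (the same without Il2rg). Of all protein-coding genes 49.1% were present in LM2 and 48.1% in Parental, and of all 35905 genes 31.1% in LM2 and 30.5% in Parental. Il2rb, Il7r, Il21r, Il13ra1 and Il15 were below the mark in both lines.

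**Figure D1:**
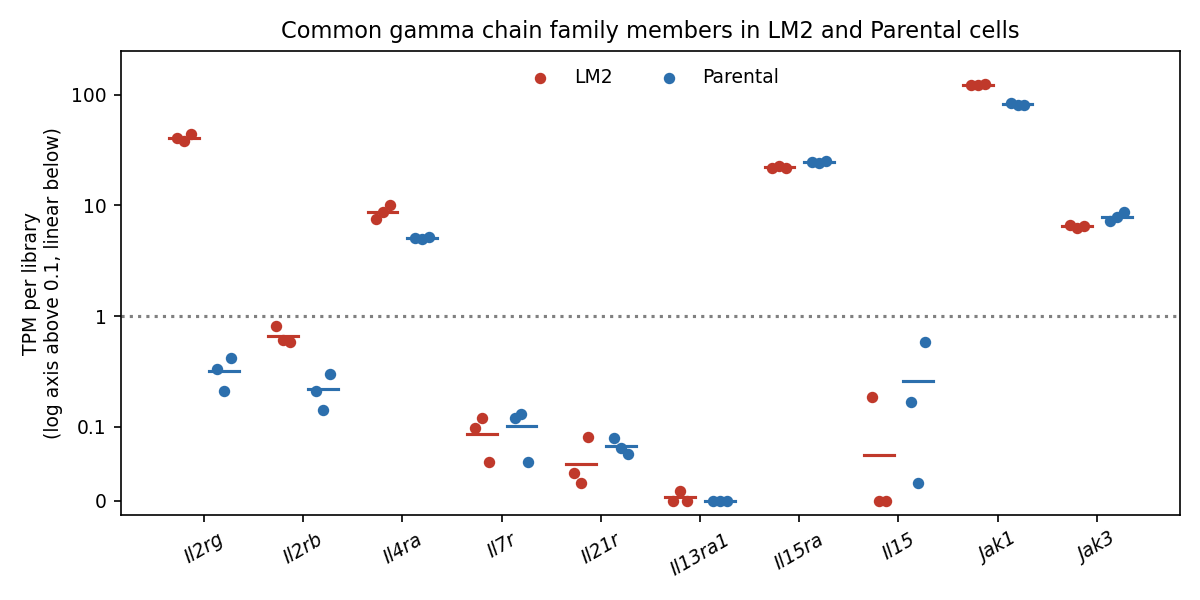
TPM of each member in each library, with LM2 in red on the left and Parental in blue on the right of each gene. Points are libraries, short lines are means of 3 libraries, the dotted line is 1 TPM, and the axis is logarithmic above 0.1 TPM and linear below. Il2rg lies at 38.0 to 44.1 TPM in LM2 and below 0.5 TPM in Parental, while Il15ra, Jak1 and Jak3 lie well above 1 TPM in both lines.

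Il2rg stood at 40.4, 38.0 and 44.1 TPM in the LM2 libraries, against 0.333, 0.209 and 0.423 TPM in the Parental libraries. Every LM2 library was far above every Parental library, and the Parental level rested on 10, 6 and 7 estimated counts. The ratio of mean TPM was 127, and the log2 fold change fitted by edgeR was 7.54, the value ranked 19 from the top among 13247 tested genes. Its approximate SE of 0.11 is too small, since the Parental libraries held 23 counts in all. It cannot be set beside the SE of other members. The log2 fold change was 6.92 with length-scaled counts and 6.72 in the authors' deposited table. In LM2 the full-length coding transcript Il2rg-201 took 94.4 ± 1.28% of the gene's counts (SD, n = 3).

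Reads of Il2rg could in principle be shared with an overlapping gene. Of its 31-base words 28.7% occur in another gene, and in all cases that gene was Gm20489, annotated on the same strand. Gm20489 itself received 2.8 estimated counts over the LM2 libraries and 0 over the Parental libraries. With the counts of both genes added, an addition chosen after the data were seen, the log2 ratio of mean CPM (counts scaled to library size) was 7.58. This measure differs from the fitted 7.54 of Il2rg, so the values cannot be set against each other. Il2rg alone averaged 35.7 CPM in LM2 and 0.186 CPM in Parental, and Gm20489 averaged 0.0297 CPM in LM2.

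**Figure D2:**
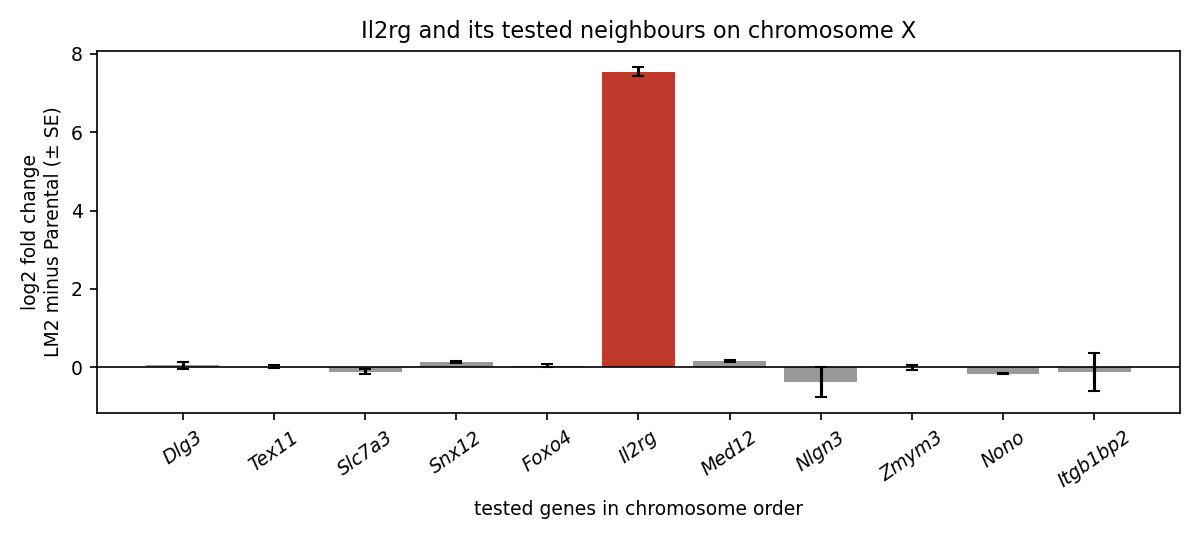
Log2 fold change, LM2 minus Parental, of Il2rg (red) and of the 5 tested genes on each side of it on chromosome X (grey), in chromosome order, with bars of ± 1 SE from edgeR. Il2rg stands at 7.54 and its neighbours between -0.37 and 0.16. The bar of Il2rg is too narrow, since its Parental libraries held 6 to 10 counts each.

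The genes around Il2rg on chromosome X did not share its difference. Of the 10 nearest tested neighbours, 5 on each side, 2 were higher, 1 was lower and 7 did not pass edgeR's quasi-likelihood test at an adjusted p below 0.05. Foxo4, a forkhead transcription factor gene on one side, averaged 28.5 TPM in LM2 and 26.2 TPM in Parental (log2 fold change 0.05 ± 0.04, edgeR adjusted p = 0.305). Med12, a Mediator subunit gene on the other side, rose slightly, to 33.4 TPM in LM2 against 28.6 TPM in Parental (0.16 ± 0.03, edgeR adjusted p = 0.000154). Over the whole of chromosome X, 18.9% of 397 tested genes were higher and 39.3% lower in LM2, with a median log2 fold change of -0.09.

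Il4ra encodes the chain that binds IL-4 and starts both types of IL-4 receptor. Its level was 7.47, 8.69 and 9.99 TPM in LM2, against 5.13, 5.001 and 5.21 TPM in Parental. The lines did not overlap, and the TPM spread was wider in LM2. The log2 fold change on counts was 0.53 ± 0.06 (SE), a 1.45-fold difference, and the ratio of mean TPM was 1.71. TPM also weighs transcript lengths, which the counts do not. On chromosome 7, which carries Il4ra, 32.5% of 1102 tested genes were higher in LM2 and 23.0% lower.

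Most Il4ra counts were placed on a transcript that is not annotated as coding for the receptor. Il4ra-205, annotated as a target of nonsense-mediated decay, took 68.8 ± 4.02% of the counts in LM2 and 70.2 ± 9.41% in Parental (SD, n = 3 each). The share did not separate the lines. Summed over protein-coding transcripts alone, Il4ra stood at 1.62, 3.41 and 3.65 TPM in LM2, against 0.906, 0.884 and 1.47 TPM in Parental. By that measure Il4ra was present in LM2 and fell below the 1 TPM mark in 2 of the 3 Parental libraries. How kallisto divides reads between these overlapping transcripts was not tested.

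**Figure D3:**
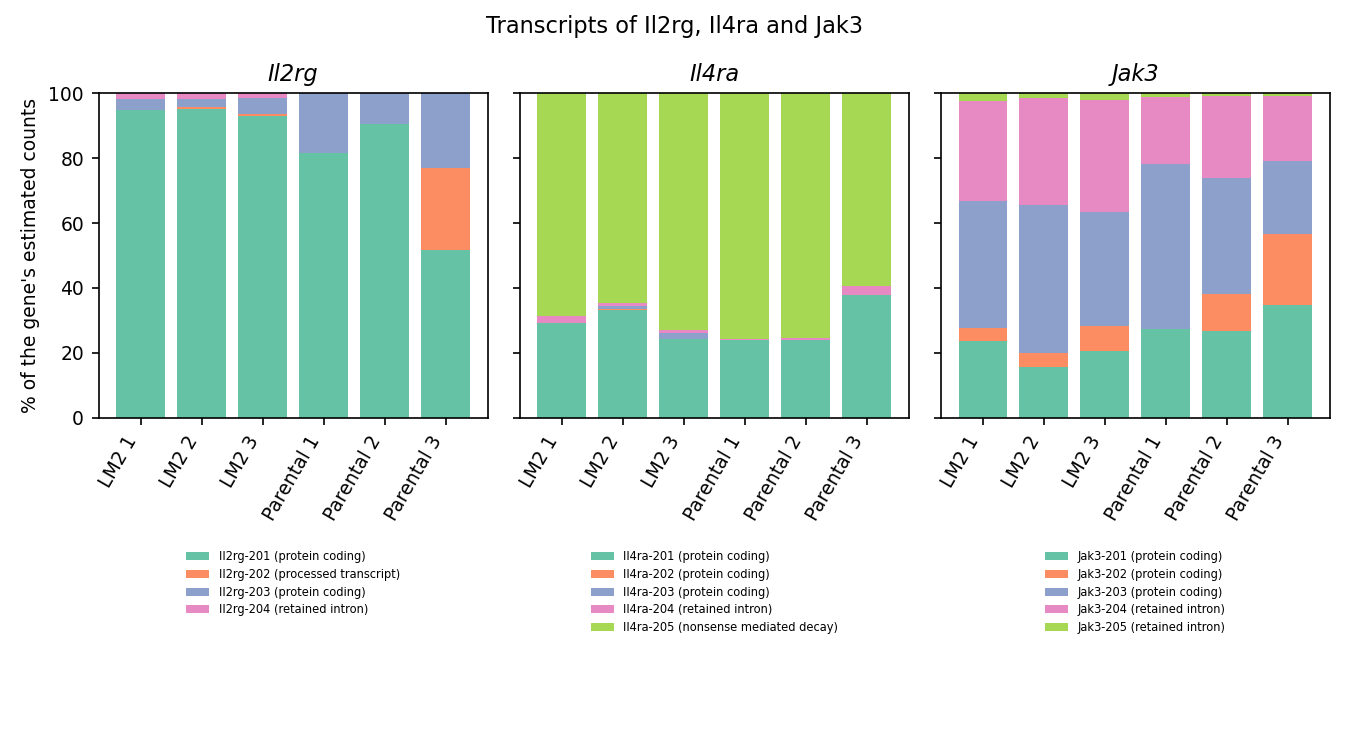
Share of each gene's estimated counts placed on each annotated transcript, per library, LM2 libraries left of Parental libraries, for Il2rg, Il4ra and Jak3. Il2rg-201 holds most Il2rg counts in LM2, Il4ra-205 holds most Il4ra counts in both lines, and the retained-intron transcripts of Jak3 take a larger share in LM2. The Il2rg shares in Parental rest on 6 to 10 counts per library.

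Il13ra1, whose product is the alternative partner of IL-4Rα, was essentially undetected. It had 1 estimated count in LM2 replicate 2, 0 in the other LM2 libraries and 0 in all 3 Parental libraries. A count of 0 allows up to 0.0888 CPM in the shallowest library, counting error only. Il13ra2, which encodes a receptor chain that binds IL-13 without a common partner, reached at most 0.0206 TPM in any library. No fold is given for either gene.

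Il2rb encodes the chain that signals with the common gamma chain for both IL-2 and IL-15. It stood at 0.811, 0.608 and 0.581 TPM in LM2, against 0.210, 0.141 and 0.300 TPM in Parental. All LM2 libraries were above all Parental libraries, yet none reached 1 TPM in either line. The counts were 45, 33 and 44 in LM2 and 20, 14 and 22 in Parental, and the log2 fold change was 1.32 ± 0.30 (SE). Il2ra, the chain that raises the affinity for IL-2, stayed at or below 0.06 TPM in every library. In LM2, Il2rg exceeded Il2rb by a TPM ratio of 62.8 ± 13.1, against 1.49 ± 0.09 in Parental (SD, n = 3 each). The Parental ratio rests on 10, 6 and 7 Il2rg counts and is rough, despite its small SD. On coding transcripts only, an alternative chosen after the data were seen, the ratio was 60.3 ± 11.7 in LM2 and 1.29 ± 0.43 in Parental. In Parental replicate 3 the coding ratio was 0.795.

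Il7r and Il21r, the specific chains of the IL-7 and IL-21 receptors, were at trace level in both lines. Il7r lay at 0.0989, 0.121 and 0.0518 TPM in LM2, against 0.121, 0.130 and 0.0527 TPM in Parental. Il21r lay at 0.0375, 0.0232 and 0.0862 TPM in LM2, against 0.0854, 0.0708 and 0.0637 TPM in Parental. The lines overlapped for both genes, and neither gene passed the low-count filter, so no fold is given. The specific chain of the IL-9 receptor, Il9r, and the TSLP receptor chain Crlf2, which pairs with IL-7Rα, reached no more than 0.109 TPM in any library.

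Il15ra encodes the chain that binds IL-15 with high affinity and can present it to neighbouring cells. It was the most abundant cytokine-specific chain of the family in both lines, at 21.9, 22.8 and 21.6 TPM in LM2, against 24.8, 24.2 and 25.4 TPM in Parental. The Parental libraries were all slightly higher, with a log2 fold change of -0.20 ± 0.06 (SE). Its ligand Il15 was close to undetected, with 1, 0 and 0 estimated counts in LM2 and 5, 1 and 4 in Parental. Protein-coding transcripts took 77.2 ± 2.36% of the Il15ra counts in LM2 and 78.1 ± 4.50% in Parental (SD, n = 3 each). High Il15ra thus stood beside almost no message for its ligand and little for Il2rb in both lines.

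**Figure D4:**
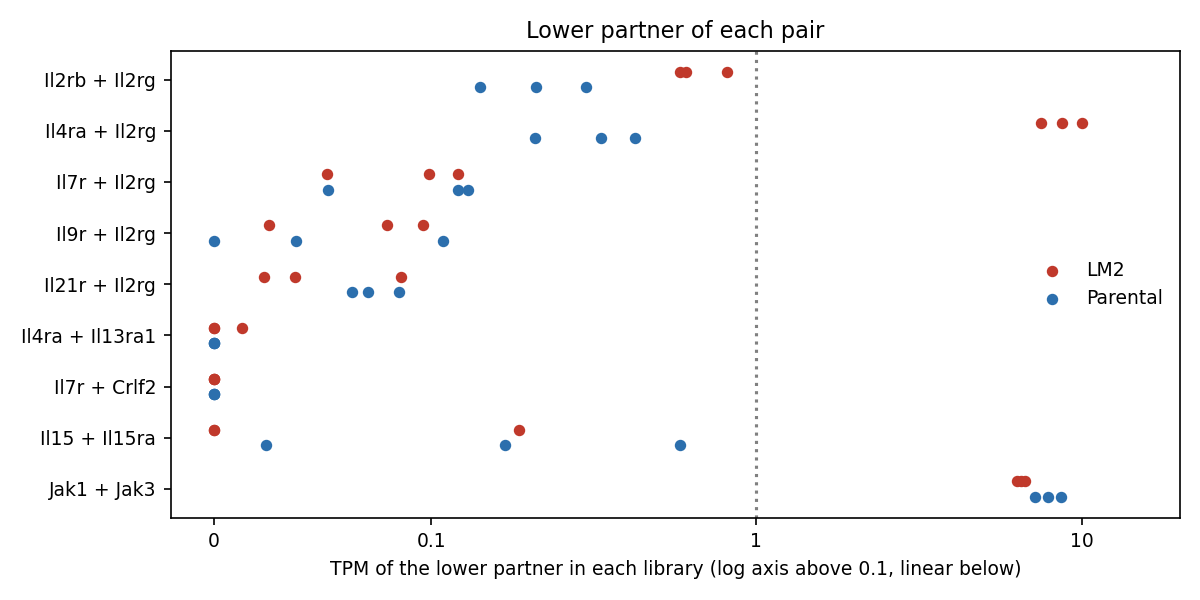
TPM of the lower of both partners in each library, for the chain pairs of the known receptors, the IL-15 presentation pair and the kinase pair, LM2 in red above Parental in blue. The dotted line is 1 TPM, and the axis is logarithmic above 0.1 TPM and linear below. Il4ra with Il2rg lies at 7.47 to 9.99 TPM in LM2 and below 0.5 TPM in Parental, and Jak1 with Jak3 lies above 5 TPM in both lines.

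Read as pairs, the members gave 1 complete receptor in LM2 and none in Parental. That difference restates the level of Il2rg, by which the members were chosen, and is no separate result. Summed over all its transcripts, Il4ra was at 1 TPM or more in every library of both lines. Of the 7 receptor pairs considered, only Il4ra with Il2rg, the type I IL-4 receptor, had both chains at 1 TPM or more in each LM2 library. Its limiting chain was Il4ra in LM2, where Il2rg exceeded Il4ra by a TPM ratio of 4.73 ± 0.58, and Il2rg in Parental, where the ratio was 0.0626 ± 0.0198 (SD, n = 3 each). On coding transcripts only, an alternative chosen after the data were seen, the Il2rg to Il4ra ratio was 15.6 ± 7.76 in LM2 and 0.256 ± 0.104 in Parental (SD, n = 3 each). The type II pair of Il4ra with Il13ra1 was incomplete in both lines. These are messenger levels, and neither protein nor binding was measured.

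Jak1 encodes the kinase carried by the cytokine-specific chains and by many other cytokine receptors. It was the most abundant member in both lines, at 123, 122 and 124 TPM in LM2, against 84.6, 81.6 and 81.6 TPM in Parental. The LM2 libraries were all higher, with a log2 fold change of 0.56 ± 0.02 (SE), or 1.47-fold. Jak1 lies on chromosome 4, on which 73.6% of 829 tested genes were higher in LM2 and 4.58% lower, with a median log2 fold change of 0.39.

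Jak3, the kinase that binds the common gamma chain, was present in both lines, at 6.71, 6.31 and 6.52 TPM in LM2, against 7.19, 7.88 and 8.65 TPM in Parental. The Parental libraries were all higher, with a log2 fold change of -0.33 ± 0.06 (SE). Jak3 lies on chromosome 8, on which 64.5% of 702 tested genes were lower in LM2 and 13.8% higher, with a median of -0.31, close to the value of Jak3 itself. The part of these chromosome-wide differences in the values of Jak1 and Jak3 was not tested. The Jak1 to Jak3 TPM ratio was 18.9 ± 0.50 in LM2 and 10.5 ± 1.17 in Parental (SD, n = 3 each). The common gamma chain gene exceeded its kinase gene in LM2, with an Il2rg to Jak3 ratio of 6.27 ± 0.43, and lay far below it in Parental, at 0.0405 ± 0.0122. On coding transcripts only, the Il2rg to Jak3 ratio was 9.55 ± 0.82 in LM2 and 0.0439 ± 0.0141 in Parental.

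Retained-intron transcripts of Jak3 took 33.3%, 34.3% and 36.6% of its counts in LM2, against 21.7%, 26.1% and 20.9% in Parental. The lines did not overlap. Summed over coding transcripts alone, Jak3 averaged 4.13 ± 0.16 TPM in LM2 and 6.03 ± 0.66 TPM in Parental (SD, n = 3 each). Of the 31-base words of Jak3 8.29% occur in other genes, mainly in Insl3, which averaged 2.30 TPM in LM2 and 1.53 TPM in Parental.

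Ordered by mean TPM in LM2, the members ran Jak1 (123), Il2rg (40.9), Il15ra (22.1), Il4ra (8.72), Jak3 (6.51) and Il2rb (0.667), and the libraries of neighbours in that order did not overlap. On coding transcripts only, Jak3 stood above Il4ra in LM2, at 4.31, 4.06 and 4.01 TPM for Jak3 and 1.62, 3.41 and 3.65 TPM for Il4ra. In Parental the order was Jak1 (82.6), Il15ra (24.8), Jak3 (7.91) and Il4ra (5.11), again without overlap, and Il2rg (0.321), Il15 (0.258) and Il2rb (0.217) followed with overlapping libraries. The trace members Il7r, Il21r and Il15 overlapped each other in LM2.

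By edgeR's filter 6 of the 10 members were tested and 4 were not, those being Il7r, Il15, Il21r and Il13ra1. All 6 tested members passed the threshold, 4 higher and 2 lower in LM2, beside 62.4% of all 13247 tested genes that were called, 31.4% higher and 31.1% lower. In CPM the libraries of the lines did not overlap for any of the 6, beside 67.0% of all tested genes. Because the family was chosen with this contrast known, nothing is read from these counts.

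Defining leukocyte genes were at or near 0, although the common gamma chain is best known from lymphocytes. Of 27 markers of leukocytes, 1 was present in LM2 and 2 in Parental, and the summed level of all 27 was 8.29 to 9.05 TPM in the LM2 libraries and 6.02 to 7.93 TPM in the Parental libraries. Ptprc, which encodes the pan-leukocyte protein CD45, averaged 0.0348 TPM in LM2 and 0.0286 TPM in Parental. The natural killer cell genes Ncr1, Klrb1c, Klrd1 and Nkg7, the B cell gene Cd79b and the macrophage gene Adgre1 were at 0 in all 6 libraries. The most abundant T cell marker was Cd3d, at 0.748 TPM in LM2 and 0.597 TPM in Parental (edgeR adjusted p = 0.876). The markers present by the 1 TPM rule were Cd79a in LM2, and Lyz2 and Cd14 in Parental. The B cell receptor gene Cd79a rose to 3.84 TPM in LM2 against 0.132 TPM in Parental (edgeR adjusted p = 4.13e-12). The lysozyme gene Lyz2 fell to 1.12, 1.25 and 0.992 TPM in LM2 against 3.21, 3.21 and 3.56 TPM in Parental (edgeR adjusted p = 9.39e-07). Of the words of Lyz2 32.8% are shared with its copy Lyz1, and of those of Cd79a 12.2% with Gm32220. The monocyte gene Cd14 fell to 0.869 TPM in LM2 against 1.49 TPM in Parental (edgeR adjusted p = 0.0219). The pan-leukocyte gene Vav1 rose to 0.424 TPM in LM2 against 0.0828 TPM in Parental (edgeR adjusted p = 2.67e-05). The perforin gene Prf1, which was not tested, stood at 0.171 TPM in LM2 and 0.0152 TPM in Parental. The part of any of these markers in the level of Il2rg was not tested.

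The other genes of the pathway, 115 in 8 lists, were mostly changed, as were genes at large. Of the 69 that were tested 31 were higher, 19 were lower and 19 did not pass, which is 72.5% called beside the 62.4% of all tested genes. Their median log2 fold change was 0.06, against -0.00 for all tested genes. The tallies of single lists below stand beside 31.4% higher and 31.1% lower among all tested genes, and nothing is read from them. Among called pathway genes of at least 1 CPM, the largest rises were those of Pik3cd and Ptpn6, both best known from blood cells.

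**Figure D5:**
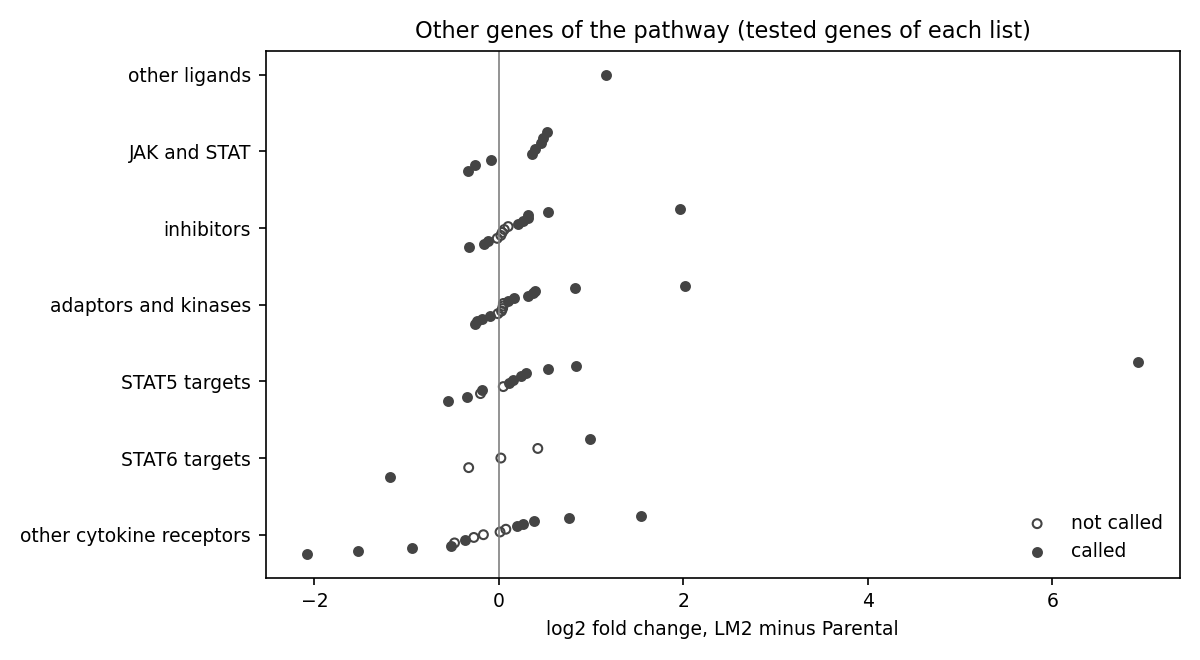
Log2 fold change, LM2 minus Parental, of the tested genes of each pathway list; filled points passed edgeR's quasi-likelihood test and open points did not. Most points lie within 1 log2 unit of 0. The point furthest to the right is Osm, whose fitted value rests on 0 counts in Parental, and the list of other receptor chains had no tested gene.

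Of the other ligands of the family, 6 of 7 were below the filter, at 0.17 TPM or less in every library. The exception, named after its values were seen, was Il4, the ligand of the pair found in LM2, at 3.72, 2.32 and 3.30 TPM in LM2 against 1.63, 1.22 and 1.19 TPM in Parental (log2 fold change 1.16 ± 0.36, edgeR adjusted p = 0.00817). All LM2 libraries were higher, but the counts were small, 29, 17 and 28 in LM2 and 17, 10 and 11 in Parental. All LM2 counts, and all but 1 in Parental, fell on a processed transcript of 541 bases that is not annotated as coding. The 4 other receptor chains of the family, Il2ra, Il9r, Crlf2 and Il13ra2, were not tested, since none passed the filter.

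Of the 9 other JAK and STAT genes 8 were tested, and 5 rose and 3 fell (median log2 fold change 0.37). Jak2, a kinase of hormone and interferon-gamma receptors, rose 1.44-fold to 5.60 TPM in LM2 against 4.02 TPM in Parental (edgeR adjusted p = 4.55e-07). Stat5a, which acts downstream of IL-2, IL-7 and IL-15 receptors, rose 1.39-fold to 17.1 TPM in LM2 against 12.7 TPM in Parental (edgeR adjusted p = 2.32e-08).

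Stat2, a transcription factor of the type I interferon response, was at 6.32, 7.98 and 9.04 TPM in LM2 and 5.30, 5.33 and 6.79 TPM in Parental, with 1 LM2 library below the highest Parental library (log2 fold change 0.39 ± 0.14, edgeR adjusted p = 0.0359). Its call was lost without LM2 replicate 3 (0.124), without Parental replicate 1 (0.122), without Parental replicate 2 (0.114) and with length-scaled counts (0.0536), all as edgeR adjusted p.

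The 3 genes of this list that fell were named after their values were seen. Stat6, the transcription factor of IL-4 and IL-13 receptors, was abundant in both lines, at 68.4, 69.7 and 74.0 TPM in LM2 against 86.1, 79.6 and 82.6 TPM in Parental. It was lower in all LM2 libraries, with a log2 fold change of -0.33 ± 0.03 (edgeR adjusted p = 2.07e-10). Tyk2 fell by 0.25 and Stat5b by 0.08 on the log2 scale (edgeR adjusted p = 0.000322 and 0.0219).

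Of 17 inhibitors of the pathway 14 were tested, and 6 rose, 3 fell and 5 did not pass (median log2 fold change 0.08). Ptpn6, the phosphatase SHP-1 of blood cells, rose 3.90-fold on counts, at 11.7, 16.4 and 13.4 TPM in LM2 against 2.93, 3.45 and 8.24 TPM in Parental (edgeR adjusted p = 1.03e-13). Its libraries did not overlap, and the Parental libraries were uneven in TPM. The ratio of mean TPM was 2.84. With length-scaled counts the log2 fold change of Ptpn6 was 1.47 (edgeR adjusted p = 0.0143), against 1.96 in the main fit. Socs3, an inhibitor induced by STAT3, rose 1.45-fold to 40.3 TPM in LM2 against 27.4 TPM in Parental, and Ptpn11, the phosphatase SHP-2, rose 1.25-fold. Pias4, which restrains STAT proteins, fell 1.25-fold, to 32.4 TPM in LM2 against 38.7 TPM in Parental. Socs4 at 20.8 TPM in LM2 and 20.9 TPM in Parental, and Socs6 at 25.5 TPM in LM2 and 23.9 TPM in Parental, did not pass. Cish, a feedback inhibitor induced through STAT5, reached at most 0.0112 TPM in any library.

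Of 18 adaptors and kinases 16 were tested, and 7 rose, 4 fell and 5 did not pass (median log2 fold change 0.05). Pik3cd, the PI3-kinase catalytic subunit best known from leukocytes, rose 4.06-fold, at 15.6, 15.9 and 17.3 TPM in LM2 against 4.50, 3.99 and 4.79 TPM in Parental (edgeR adjusted p = 7.09e-18). It lies on chromosome 4, as does Jak1. Ptk2b, a kinase related to focal adhesion kinase, rose 1.78-fold at 16.9, 16.4 and 16.1 TPM in LM2 against 9.10, 8.56 and 9.35 TPM in Parental. Irs2, an adaptor that binds IL-4Rα, rose 1.32-fold to 12.9 TPM in LM2 against 9.60 TPM in Parental, and the subunit gene Pik3ca rose 1.30-fold on counts, with overlapping TPM. Pik3r2 at 68.4 TPM in LM2 and 67.4 TPM in Parental, and Sos1 at 15.6 TPM in LM2 and 15.1 TPM in Parental, did not pass.

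Known STAT5 targets went both ways, as did genes at large. Of 15 genes 12 were tested, and 7 rose, 3 fell and 2 did not pass (median log2 fold change 0.13). Cish, Socs2 and Igf1 were not tested, at 0.354 TPM or less in every library. Socs3, given above among the inhibitors, is also in this list and rose 1.45-fold. The survival kinase gene Pim1 rose 1.79-fold, to 14.2 TPM in LM2 against 7.96 TPM in Parental (edgeR adjusted p = 2.67e-10). Of the 31-base words of Pim1 11.5% occur in other genes, mainly in Gm26885. The cyclin gene Ccnd2 fell 1.47-fold, to 179 TPM in LM2 against 256 TPM in Parental (edgeR adjusted p = 7.58e-15), and the apoptosis inhibitor gene Bcl2 fell 1.27-fold, to 2.30 TPM in LM2 against 2.87 TPM in Parental. Pim3, at 38.3 TPM in LM2 and 36.3 TPM in Parental, and Pim2, at 2.92 TPM in LM2 and 3.31 TPM in Parental, did not pass. Osm, named after its values were seen, had 42 estimated counts in LM2 and 0 in Parental, at least 5.38-fold higher in LM2 against a floor of 3 counts per library.

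Known targets of IL-4, IL-13 and STAT6 were mostly at trace level in both lines. Of 20 genes 15 were below the filter, at 0.20 TPM or less in every library, among them Arg1, Retnla, Chil3 and Mrc1, which mark macrophages exposed to IL-4. Of the 5 tested genes 1 rose, 1 fell and 3 did not pass. Tgm2, a transglutaminase gene, rose 1.98-fold, at 22.7, 26.0 and 21.2 TPM in LM2 against 11.7, 11.6 and 11.1 TPM in Parental (edgeR adjusted p = 1.10e-08). Fcer2a, the low-affinity IgE receptor gene, named after its values were seen, fell, at 0.220 TPM in LM2 against 0.492 TPM in Parental (edgeR adjusted p = 0.00718). Socs1, at 7.16 TPM in LM2 and 6.93 TPM in Parental, and Il4i1, at 1.11 TPM in LM2 and 1.35 TPM in Parental, did not pass.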

How the data were processed

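The authors deposited, per library, estimated counts, TPM, length and effective length in bases of 117486 transcripts, and the submitters' processing notes name kallisto 0.46.2, edgeR 3.32.1 and build GRCm39. For the transcript set and the strand setting, nothing is given in the sources used here, and antisense and overlapping genes cannot be told apart. The authors also deposited log2 fold changes per gene symbol. Their base and direction are not written, and were read from a median absolute difference of 0.02 from the LM2 minus Parental values computed here, against 0.44 with the sign turned, over 10531 genes. Some named genes differed more than this median. The authors' values were -0.62 for Socs1, 0.94 for Jak2 and -1.34 for Il12rb1, against 0.02, 0.52 and -0.95 here.

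Transcripts were matched by Ensembl identifier to GENCODE M21 (99.1% matched, 35905 genes). The unmatched rest held 0.426% to 0.448% of the counts and was left out. Estimated counts and TPM were summed per gene, and counts rounded. LM2 was compared with Parental over all genes with edgeR 4.0.16 in R 4.3.3 (filterByExpr, TMM, robust quasi-likelihood test, Benjamini-Hochberg adjusted p below 0.05). Each standard error is the log2 fold change divided by the square root of F, an approximation that is too small for Il2rg, with few Parental counts. Alternatives were DESeq2 1.42.0, limma 3.58.1 voom, other scalings and filters, length-scaled counts, a replicate block and leaving out each library. The scripts were tested on simulated data. Words of 31 bases were compared between the reference transcripts of different genes on both strands.

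The members and gene lists were chosen with earlier results of these data known. Named were all members, the 4 called genes of at least 1 CPM with the largest change and the 2 most abundant uncalled genes per list, the 5 tested neighbours of Il2rg on each side (summarised, with the nearest named), the 5 genes most like Il2rg, and Ptprc with the most abundant markers. Of these genes, 1 of these genes is not reported here. Intervals and floors cover counting error only.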

Additional observations from a re-analysis of the deposited data

How the results depend on the processing

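The number of called genes was 8272 and stayed within 1.5 times of that in all alternatives, between 6964 with length-scaled counts and 8596 without a filter. Leaving out 1 library at a time gave 7778 to 8258 called genes, and 48 to 51 called pathway genes against 50. The 6 tested members kept their direction in all alternatives that could fit them. Il2rb was not tested at 1 CPM in 3 libraries, and Il4ra was not summed with its overlapping gene Gm44876, for which no counts were used here. The log2 fold change of Il2rg ran from 6.92 to 7.69, that of Il4ra from 0.51 to 0.73 and that of Il2rb from 1.21 to 1.55. With length-scaled counts the value lay outside the spread between libraries for all 3. For Il2rg it did so also without Parental replicate 1 (7.69). At 0.5 TPM 6 members were present in LM2, Il2rb being added, and at 5 TPM 5. With coding transcripts only, 3 were present in Parental, Il4ra being lost. Leaving out any library gave the same 5 and 4. Il6ra did not pass but did so without Parental replicate 2 (edgeR adjusted p = 0.0143), with RLE factors (0.0497) and at 1 CPM in 3 libraries (0.0427).

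Same-numbered libraries did not deviate together (correlations of deviations across genes, which are not replicates, -0.08, 0.05 and 0.01), so the numbers were not taken to pair them, and not every library correlated best with its own number. A fit with the replicate block called 8250 genes and 50 pathway genes, and changed no call of a pathway gene named by the rule. It was not read for the other genes named. Members below about 10 counts per library in both lines cannot be compared at this depth. Il2rg was near that level in Parental only, so its fold change and its Parental ratios are rough.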

Other observations

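Of 29 cytokine receptor chains outside the family 15 were tested, and 5 rose, 5 fell and 5 did not pass edgeR's test, with a median log2 fold change of -0.17. Of all 13247 tested genes 62.4% were called, 31.4% higher and 31.1% lower, so nothing is read from this tally. Il6st, which encodes gp130, the shared chain of the IL-6 family and a receptor that also uses JAK1, rose 1.69-fold, at 34.3, 36.1 and 36.7 TPM in LM2 against 20.9, 21.2 and 21.3 TPM in Parental (edgeR adjusted p = 5.92e-15). Osmr, the oncostatin M receptor chain that pairs with gp130, fell 4.22-fold, at 0.872, 1.30 and 0.543 TPM in LM2 against 3.31, 3.27 and 2.94 TPM in Parental (edgeR adjusted p = 3.48e-12). Il12rb1, a chain of the IL-12 and IL-23 receptors, fell 1.93-fold, to 7.52 TPM in LM2 against 13.9 TPM in Parental (edgeR adjusted p = 2.52e-09), and the growth hormone receptor gene Ghr fell 2.89-fold, to 0.484 TPM in LM2 against 0.899 TPM in Parental. With length-scaled counts the log2 fold change of Ghr was -0.92, against -1.53 otherwise. Il6ra, at 24.1 TPM in LM2 and 23.2 TPM in Parental, and Il11ra1, at 8.23 TPM in LM2 and 8.53 TPM in Parental, did not pass.

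The 5 named genes whose pattern over the 6 libraries was closest to that of Il2rg, by Euclidean distance of centred log2 CPM, were Scarf1, Lgals7, Slit1, Pla2g5 and Snx18, at distances of 0.43 to 0.99. They lie on chromosomes 11, 7, 19, 4 and 13, not on X. Scarf1, a scavenger receptor gene, averaged 25.5 TPM in LM2 and 0.177 TPM in Parental. Lgals7, a galectin gene, averaged 84.3 TPM in LM2 and 0.426 TPM in Parental.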
